A study of Mus musculus with 5 samples.

Results

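Of the 196406 entries named in the piRNA tables of 5 mouse germ cell and zygote libraries, 1739 were led by the oocyte and the zygote. An entry is 1 name in those tables with its estimated number of reads, and a name not listed for a library counted there as 0 reads. Reads were scaled to 1000000 reads of the library's piRNA table (RPM), and each entry was given 4 values: its RPM in primordial germ cells, in spermatogonia and in spermatozoa, and the mean of its RPM in oocyte and zygote. An entry belongs to the set if it had at least 100 reads over the 5 libraries, carried no mitochondrial (chrM) mark in its name, and had 60% or more of the sum of the 4 values in the mean of oocyte and zygote. Of the 196406 entries, 11444 met the first 2 conditions. Because the levels themselves chose the set, the lead of the egg libraries is a description and was not tested.

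The study set out to compare piRNAs and endo-siRNAs (small RNAs cut by Dicer) of gametes and zygote. Zygotes were taken 15 to 18 hours after fertilization as a pool of 15416 cells, from females of strain C57BL/6 crossed to males of DBA/6J. Oocytes came from the oviducts of C57BL/6 females, as a pool of 15210 cells; the sample label calls them metaphase II and the collection protocol fully grown, so their stage rests on the label. The females were 4 to 5 weeks old and superovulated with gonadotropins, and cumulus cells and zona were removed. Primordial germ cells were taken with anti-CD15 beads from male gonads of 13.5-day fetuses, spermatogonia from 8.5-day-old testes after somatic cells had settled and adhered, and spermatozoa from cauda epididymis and vasa deferentia, all of CD-1 mice. Each cell type is 1 library, so differences between them have no replicate behind them and were not tested, and strain, preparation and cell type cannot be told apart between egg and male germ line. Intervals in brackets are exact 95% intervals that cover counting error only, since reads without molecular identifiers are not independent molecules.

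piRNAs are small RNAs that guide PIWI proteins, and in the germ line they are best known for silencing transposable elements. In mice the pathway is needed for sperm formation, whereas females that lack its PIWI proteins remain fertile. Growing mouse oocytes contain piRNAs beside endo-siRNAs, and the zygote receives the cytoplasm of the egg. The deposited tables hold names and read numbers, so the sequences, lengths and genome positions behind these entries were not analysed here. Whether the reads of an entry are piRNAs bound to PIWI proteins was not tested.

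The piRNA tables held 9552106 reads in the zygote, 14513316 in the oocyte, 5820204 in primordial germ cells, 7150813 in spermatogonia and 18212803 in spermatozoa. A single read is therefore worth 0.0549 RPM in spermatozoa and up to 0.172 RPM in primordial germ cells. A few entries outside the set weigh on this scale: PIR64428 alone took 36.3% of the spermatozoal piRNA reads, and PIR75142 took 3.08% in the zygote and 6.18% in the oocyte. In the miRNA tables, the 3 miRNAs fixed as markers of spermatids and spermatozoa (miR-34c-5p, miR-34b-3p and miR-449a-5p) summed to 231417 RPM of the miRNA table in spermatozoa and to between 917 and 8245 in the other libraries. A 4-miRNA list of the miR-290 cluster, of primordial germ cells and early embryo, was highest in primordial germ cells (25338) and lowest in spermatozoa (37.8). Markers of muscle-like cells (miR-143-3p, miR-145a-5p) summed to 20989 in the zygote, 26554 in the oocyte, 9259 in primordial germ cells, 233042 in spermatogonia and 230738 in spermatozoa. The gonadal soma pair (miR-202-5p and miR-202-3p) ranged from 103 in spermatozoa to 14981 in spermatogonia. The 4 blood markers ranged from 170 in the oocyte to 18939 in spermatozoa, and the 5 epithelial markers from 1071 in spermatogonia to 22789 in spermatozoa. The liver miRNA miR-122-5p was at most 1.72. The part of other cells in the piRNA values was not tested.

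The 1739 entries took 39.8% of the zygote's piRNA reads [39.79 to 39.85] and 22.2% of the oocyte's [22.19 to 22.23]. Their share was 1.43% in primordial germ cells, 2.75% in spermatogonia and 0.531% in spermatozoa. The piRNA table was the smaller in the zygote, and of the reads of all 4 tables (piRNAs, endo-siRNAs, miRNAs and snoRNAs), these entries took 8.79% in the zygote and 7.45% in the oocyte. In number of entries, the 1739 compare with 990 led by primordial germ cells, 3032 led by spermatogonia and 1206 led by spermatozoa under the same limit, and 4477 had no leader. The entries without a leader held most of every library, with 54.3% of piRNA reads in the zygote, 72.9% in the oocyte, 71.4% in primordial germ cells, 63.1% in spermatogonia and 86.6% in spermatozoa.

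**Figure D1:**
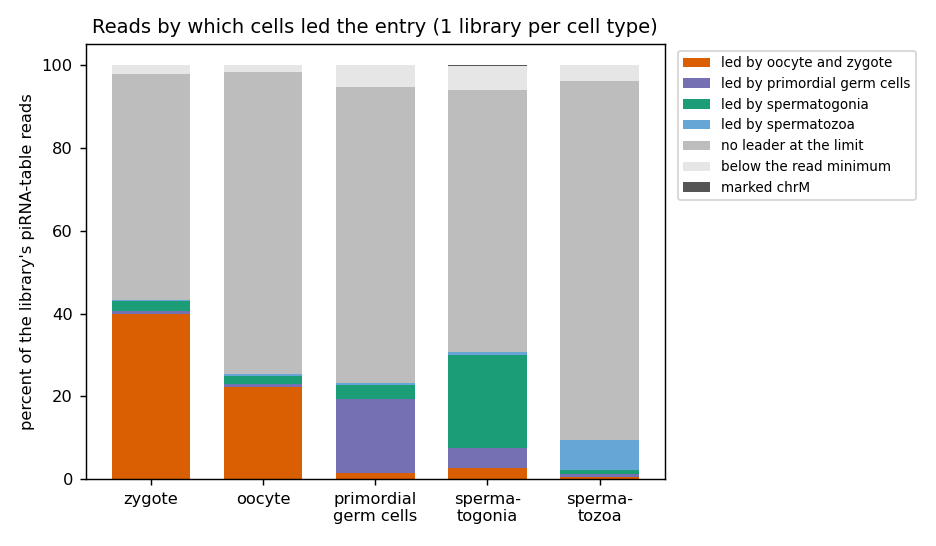
Percent of each library's piRNA-table reads (vertical axis) on entries grouped by the cells that led them, with 1 bar per library. The entries led by oocyte and zygote (orange) fill 39.8% of the zygote bar and 22.2% of the oocyte bar, and at most 2.75% of a male germ cell bar, while entries with no leader (grey) are the largest part of every bar.

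The lead was wide for most entries. The median entry had 89.1% of its 4-value sum in the egg mean, 84 entries had 99% or more, and 228 lay between 60% and 70%. In 1673 of the 1739 entries, zygote and oocyte were each higher than all 3 male germ cell libraries. At the limit, most values were small. PIR213999, just inside with 60.2%, had 5.02 RPM in the zygote and 4.51 RPM in the oocyte, against 2.94 RPM in spermatogonia. mmur000752424, at 60.2%, had 4.37 RPM in the zygote and 3.00 RPM in the oocyte, against 1.99 RPM in spermatozoa. PIR213329 lay at 60.3%. Just outside were PIR49736 at 59.9%, PIR14720 at 59.9% and mmur000984069 at 59.9%. PIR49736 had 4.89 RPM in the zygote and 4.82 RPM in the oocyte, against 2.52 RPM in spermatogonia. mmur000984069 had 20.6 RPM in the zygote and 14.4 RPM in the oocyte, against 8.13 RPM in spermatogonia. The egg mean was between 3.69 and 7.69 RPM for the 3 inside and 3.43, 4.85 and 17.5 RPM for the 3 outside.

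Most of the reads sat on few entries. The 10 most abundant, by the mean of oocyte and zygote, held 51.2% of the set's reads in the zygote and 49.9% in the oocyte. They consist of 5 PIR names and a run of 5 neighbouring mmur names. What the prefixes PIR and mmur stand for is not given in the sources used here.

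The most abundant entry was PIR232912, with 58510 RPM in the zygote and 25460 RPM in the oocyte, against 338 RPM in primordial germ cells, 1136 RPM in spermatogonia and 7.93 RPM in spermatozoa. It made up 5.85% of all piRNA reads of the zygote and 2.55% of those of the oocyte, and was 2.30-fold higher in the zygote [2.29 to 2.31]. PIR235614 had 33669 RPM in the zygote and 13006 RPM in the oocyte, against 210 RPM in primordial germ cells, 3232 RPM in spermatogonia and 4.45 RPM in spermatozoa. Its zygote to oocyte ratio was 2.59-fold [2.57 to 2.60], and its level in spermatogonia was the highest of the set in any male germ cell library. In both entries the order was the same: zygote, oocyte, spermatogonia, primordial germ cells, spermatozoa.

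PIR266449 had 12130 RPM in the zygote and 11002 RPM in the oocyte, against 113 RPM in primordial germ cells, 1294 RPM in spermatogonia and 3.46 RPM in spermatozoa. PIR228281 had 12123 RPM in the zygote and 6680 RPM in the oocyte, against 67.4, 320.3 and 3.05 RPM in primordial germ cells, spermatogonia and spermatozoa. PIR211357 had 11318 RPM in the zygote and 6670 RPM in the oocyte, against 60.1, 498 and 1.87 RPM in the same 3 libraries. The zygote to oocyte ratio was 1.10-fold for PIR266449 [1.09 to 1.11], 1.81-fold for PIR228281 [1.80 to 1.83] and 1.70-fold for PIR211357 [1.68 to 1.71]. All 5 of the leading PIR entries were under 10 RPM in spermatozoa.

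The 5 neighbours mmur000782472 to mmur000782476 had nearly the same reads, between 144928 and 145203 in the zygote and between 138969 and 139178 in the oocyte. In RPM these are 15172 to 15201 in the zygote and 9575 to 9590 in the oocyte, against 1686 to 1726 in primordial germ cells, 1204 to 1229 in spermatogonia and 675 to 679 in spermatozoa. They differ from the leading PIR entries in the male germ line, where primordial germ cells were the highest of the 3 libraries and spermatozoa had at least 675 RPM. Their egg mean was 77.3% to 77.6% of the 4-value sum, against 87.1% or more for the 5 PIR entries. With reads this close, the 5 names were not counted as 5 independent measurements. These were also the entries of the set with the highest level in spermatozoa and in primordial germ cells, and mmur000782476 came next in spermatogonia after PIR235614 and PIR266449.

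**Figure D2:**
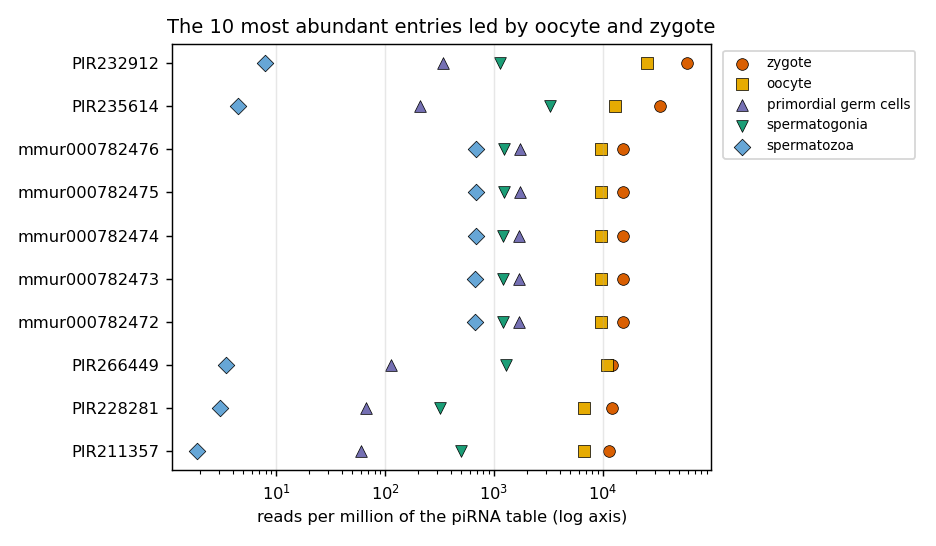
Level of the 10 most abundant entries of the set in each of the 5 libraries, in RPM on a log axis, with 1 point per library. Zygote (circles) and oocyte (squares) lie to the right of every male germ cell point, and spermatozoa (diamonds) lie under 10 RPM for the 5 PIR names but at 675 to 679 RPM for the 5 mmur neighbours.

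The zygote was then compared with the oocyte within the set. The rule used only the mean of the pair and named no direction. An entry high in either could enter, however, so the split between them is not free of the choice. Chosen by the oocyte alone, the set had a median log2 zygote to oocyte ratio of 0.88, and chosen by the zygote alone 0.97. Log2 ratios used 0.5 added reads, and were read where zygote and oocyte together held 100 reads or more, which 1648 entries did. The other 91 had 73.7 reads or more there and passed the minimum with reads from the male libraries. Of the 1648, 1444 (87.6%) were higher in the zygote, beside 63.9% of all 4170 piRNA entries past that minimum and 82.1% of those with PIR names. The median log2 ratio of the 1648 was 0.93, with quartiles at 0.50 and 1.39. For all 4170 piRNA entries past that minimum the median was 0.50, which puts the set 0.43 above it, and for the 2522 outside the set it was -0.05. With reads scaled to all 4 tables, every ratio was lower by 0.60. The median was then 0.32 for the set, chosen on that scale, and -0.10 for all entries. Because the shift is the same for every entry, the distance of 0.43 could change only through which entries were chosen. Of the 1599 chosen on that scale, 1594 were also in the main set, so the equal distance is no separate check.

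A lead of the zygote by 4-fold or more was seen in 143 entries (8.68% of 1648), beside 5.16% of all entries. A lead of the oocyte of that size was seen in 47 (2.85%), beside 4.99% of all entries. Scaled to all 4 tables, the counts were 48 higher and 70 lower, so the balance of these counts rests on the scale. With runs of near-equal neighbouring names counted once, they were 137 higher and 38 lower. The choice of entries moved them too, to 103 and 61 with the rule on the oocyte alone, and to 167 and 13 on the zygote alone. The 143 higher entries were mostly low, with a median of 17.8 RPM in the zygote and 2.86 RPM in the oocyte, and held 1.85% of the set's zygote reads. The 47 lower ones held 0.215% of the set's reads in the zygote and 3.27% in the oocyte.

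**Figure D3:**
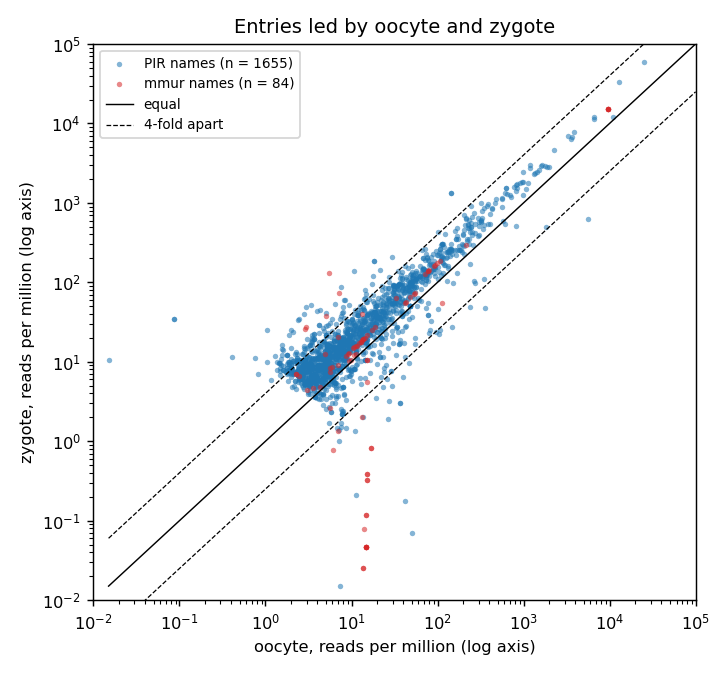
Level in the zygote against level in the oocyte for the 1739 entries, in RPM on log axes, with 1655 PIR names in blue and 84 mmur names in red; levels of 0 are drawn at the edge, and dashed lines mark 4-fold. Most points lie above the line of equal levels, and a column of mmur points falls far below it at about 15 RPM in the oocyte.

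At the upper end of the ratio, PIR40128 had 102 reads in the zygote and 0 in the oocyte. Against a floor of 3 oocyte reads it would be 51.7-fold higher in the zygote, and the exact interval of its ratio starts at 41.3-fold. PIR76348 and PIR76349 carried identical reads, 328 in the zygote and 1.25 in the oocyte each, or 34.3 and 0.0861 RPM. Their ratio of 399-fold has an interval from 88.8 to 19743, since it rests on 1 oocyte read. PIR47482 had 111 reads in the zygote, 6 in the oocyte and none in the male libraries, a ratio of 28.1-fold [12.5 to 78.2]. mmur000433052 had 131 RPM in the zygote and 5.45 RPM in the oocyte, a ratio of 24.0-fold [19.1 to 30.6], with 14.2, 6.66 and 4.03 RPM in primordial germ cells, spermatogonia and spermatozoa. All 5 were under 6 RPM in the oocyte and at most 131 RPM in the zygote.

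Among more abundant entries, named after their values were seen, PIR58507 and PIR58508 stood out. PIR58508 had 1313 RPM in the zygote and 143 RPM in the oocyte, against 350 RPM in primordial germ cells, 73.5 RPM in spermatogonia and 5.24 RPM in spermatozoa, and was 9.20-fold higher in the zygote [8.78 to 9.64]. PIR58507 had near-equal values, at 1312 RPM in the zygote and 143 RPM in the oocyte. In these neighbours primordial germ cells were above the oocyte, so they are in the set through the zygote. PIR202469 had 435 RPM in the zygote and 101 RPM in the oocyte, a ratio of 4.32-fold [4.07 to 4.58], and at most 2.38 RPM in a male germ cell library.

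At the lower end, PIR243807 had 0.67 reads in the zygote and 743 in the oocyte, or 0.0701 and 51.2 RPM. It had at most 1 read in any male library. PIR32909 had 1.67 reads in the zygote and 604 in the oocyte, and was 238-fold lower in the zygote [54.8 to 1645]. mmur000551436 and mmur000551437 had 0.24 reads each in the zygote, under a single read, and 198 and 199.8 reads in the oocyte. The oocyte led these entries alone, and none had more than 11.4 reads in a male germ cell library.

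The fifth of the lowest ratios, mmur001134725, belongs to a neighbourhood of 18 members named mmur001134721 to mmur001134750. The tables hold 25 entries in that stretch of names, 21 of them with at least 100 reads. All 18 were lower in the zygote, with log2 ratios from -7.24 to -0.53, and 14 of them at least 4-fold. mmur001134725 had 0.44 reads in the zygote and 215 in the oocyte, against 1.24, 0.10 and 0.54 reads in primordial germ cells, spermatogonia and spermatozoa. Of the 18, 4 (mmur001134722, mmur001134723, mmur001134737 and mmur001134738) had identical reads in all 5 libraries, at 215 in the oocyte. The 47 entries lower by 4-fold or more comprised 28 PIR and 19 mmur names, so this neighbourhood supplied most of the mmur ones.

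The most abundant of the 47, named after its values were seen, was PIR58266. It had 619 RPM in the zygote and 5547 RPM in the oocyte, against 933 RPM in primordial germ cells, 92.6 RPM in spermatogonia and 209 RPM in spermatozoa, and was 8.97-fold lower in the zygote [8.73 to 9.21]. Primordial germ cells were thus above the zygote for this entry. The next, PIR36090, had 47.6 RPM in the zygote and 358 RPM in the oocyte, 7.52-fold lower [6.84 to 8.30], and at most 4.34 RPM in the male germ line.

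**Figure D4:**
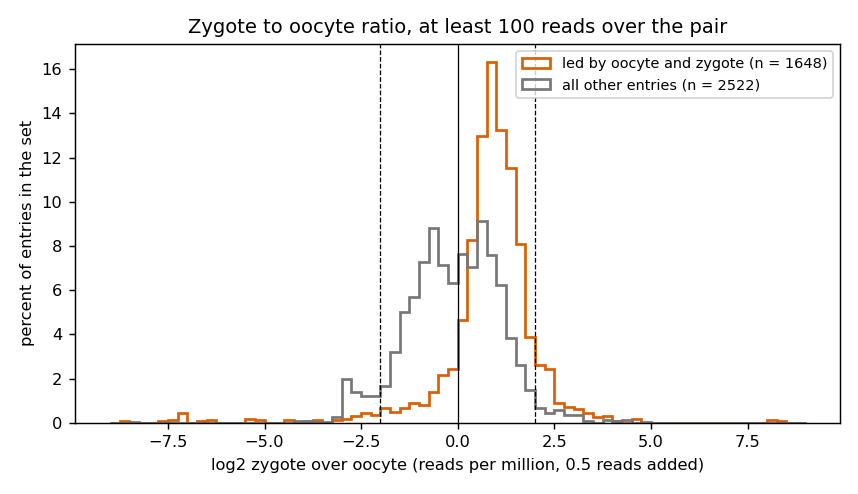
Distribution of the log2 zygote to oocyte ratio, as percent of entries, for 1648 entries led by oocyte and zygote (orange) and the 2522 other entries with 100 or more zygote and oocyte reads (grey); dashed lines mark 4-fold. The set has a single peak with its median at 0.93, while the other entries spread to both sides of 0 around a median of -0.05.

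The quartiles of the ratio lay closer together in more abundant entries. Split into 3 nearly equal parts by egg mean, the lowest part (3.41 to 8.01 RPM) had quartiles of 0.34 and 1.55, with 56 of 489 measured entries higher by 4-fold or more and 27 lower. The middle part (8.03 to 26.9 RPM) had quartiles of 0.49 and 1.43, with 61 of 579 such entries higher and 13 lower. The highest part (26.9 RPM and above) had quartiles of 0.62 and 1.26, with 26 of 580 higher and 7 lower. The medians of the 3 parts lay between 0.92 and 0.96. Across the 1739 entries the Spearman correlation of zygote and oocyte reads was 0.80, beside 0.88 over all 11444 entries with the read minimum. These values are a description only, since neighbouring names share reads and the lower limit on reads bounds both libraries.

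In the male germ line the entries were low. Reads were found for 1106 of the 1739 in primordial germ cells, 1482 in spermatogonia and 1421 in spermatozoa. The median level was 17.0 RPM in the zygote and 9.34 RPM in the oocyte, against 0.344 RPM in primordial germ cells, 0.933 RPM in spermatogonia and 0.220 RPM in spermatozoa. These male medians rest on 2, 6.67 and 4 reads, and levels below 3 reads were not told from 0. At least 3 reads were found for 763 entries in primordial germ cells, 1138 in spermatogonia and 1040 in spermatozoa.

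Of the 1686 entries with a read in a male library, primordial germ cells were the highest of the 3 for 333 (19.8%), spermatogonia for 1043 (61.9%) and spermatozoa for 310 (18.4%). The highest library had 3 reads or more for 1445 entries, and among these the counts were 272, 910 and 263 in the same order. The highest male library was not counted over all entries, so whether this order is particular to the set was not tested. Outside the set, on the same scale, spermatogonia led 3032 entries, against 990 led by primordial germ cells and 1206 led by spermatozoa. Which male library was most often the highest in the set rests on the scale. Totals without the 5 most abundant entries of any library, PIR64428 among them, gave 387 for spermatozoa. With DESeq2 size factors, under which 2240 entries met the rule, 53 of them without a male read, primordial germ cells were highest for 399, spermatogonia for 774 and spermatozoa for 1014. For the 255 entries with at least 100 reads over the 3 male libraries, spermatogonia were highest in 207, primordial germ cells in 34 and spermatozoa in 14. These deeper entries passed through their higher male level, so they do not stand for the set.

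Of 205 entries with at least 100 reads over spermatogonia and primordial germ cells, 128 (62.4%) were higher in spermatogonia by 4-fold or more, where 29.8% of all 6362 such entries were, and 4 were lower by as much, where 5.31% were. The median log2 ratio was 2.62 in the set and 0.85 over all. Of 228 entries with at least 100 reads over spermatozoa and spermatogonia, 172 (75.4%) were lower in spermatozoa by 4-fold or more, where 59.9% of all 7071 were, and 6 were higher by as much, where 17.1% were. The median log2 ratio was -4.16 in the set and -3.06 over all. These ratios rest on the scale of piRNA totals, 18212803 reads in spermatozoa and 7150813 in spermatogonia. DESeq2's size factors were 0.699 in spermatozoa, 2.51 in spermatogonia and 1.06 in primordial germ cells. That scale would raise every ratio of spermatozoa over spermatogonia, by more than 4-fold, and lower every ratio of spermatogonia over primordial germ cells. Both medians over all entries would change sign on it, and both medians of the set would shrink. The shares higher in spermatogonia and lower in spermatozoa by 4-fold would be smaller, so their size rests on the scale. The shares were not counted on that scale. The rule caps the sum of the male values, and can keep out entries that are high in spermatozoa. The 205 and the 228 entries also passed 100 reads through their higher male level, so they do not stand for the set. These shares are therefore given as a description. Spermatogonia also had the highest sum of the gonadal soma pair, 14981 RPM of the miRNA table, against 1734 in primordial germ cells and 103 in spermatozoa. The muscle-like markers were about as high in spermatogonia (233042) as in spermatozoa (230738), and the part of other testis cells in these values was not tested.

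No read in any male library was found for 53 entries, and together these held 6188 reads in the zygote and 4835 in the oocyte. The most abundant of them, named after their values were seen, was PIR16419, with 36.3 RPM in the zygote and 18.8 RPM in the oocyte, followed by PIR45302 with 33.4 RPM in the zygote and 18.3 RPM in the oocyte. A count of 0 allows up to 0.515 RPM in primordial germ cells, 0.420 RPM in spermatogonia and 0.165 RPM in spermatozoa. Reads in all 5 libraries were found for 890 entries.

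**Figure D5:**
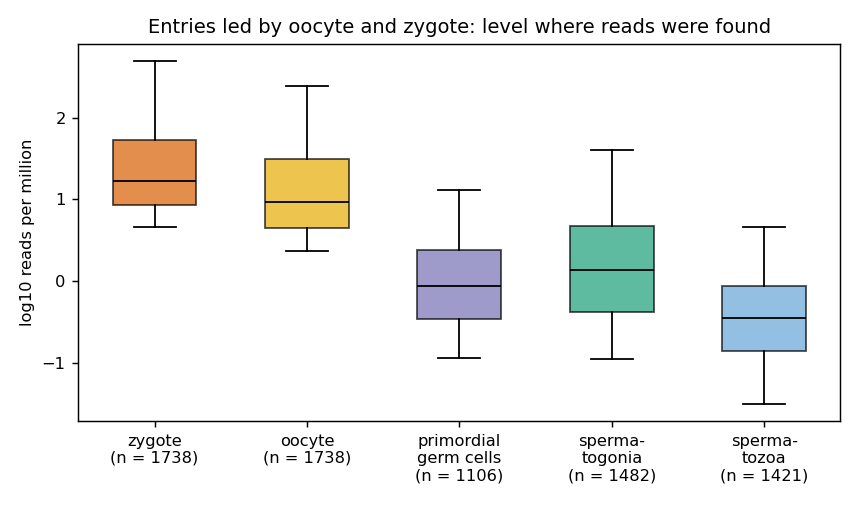
Level of the entries of the set in each library, as log10 RPM, over the entries with reads there (n under each box); boxes are quartiles with the median, and whiskers run from percentile 5 to percentile 95. Zygote and oocyte boxes lie above the boxes of all 3 male germ cell libraries, among which spermatogonia are highest and spermatozoa lowest on this scale. Entries at 0 are left out, and 1 read is worth 0.172 RPM in primordial germ cells, 0.140 in spermatogonia and 0.0549 in spermatozoa. The order of the 3 male boxes therefore also rests on depth.

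The names divide the entries in a way the rule did not use, apart from chrM. PIR names made up 1655 of the 1739 entries (95.2%), whereas they were 40.4% of the 11444 entries with at least 100 reads. Put the other way, 35.8% of such PIR entries and 1.23% of such mmur entries were led by oocyte and zygote. The other sets differed in this: PIR names were 82.7% of the entries led by spermatozoa, 22.0% of those led by spermatogonia, 22.2% of those led by primordial germ cells and 24.3% of those without a leader. A high share of PIR names was therefore found in the sets of both gametes. PIR numbers fall into 2 ranges, from 1000 to 89637 and from 193281 to 276193. Of the PIR names in the set, 777 were in the lower and 878 in the upper range, and 33.2% and 38.4% of the entries with at least 100 reads in these ranges belonged to the set. In the entries led by spermatozoa 31.9% of PIR names were in the lower range, against 46.9% in this set.

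Within the set, the name groups differed in the zygote to oocyte ratio. The median log2 ratio was 0.94 for the lower PIR range, 0.97 for the upper and 0.46 for the mmur names. Over all 4170 entries, the medians were 0.73, 0.96 and -0.41. The upper PIR range had nearly the same median in the set and over all, whereas the lower range and the mmur names lay higher in the set. All entries include the members, which were 835 of 1083 in the upper range, 735 of 1355 in the lower and 78 of 1732 mmur names. How near the 2 medians lie thus also follows from this overlap, and the name groups cannot be compared by it. Of 1570 PIR names measured, 138 were higher and 28 lower by 4-fold or more, and of 78 mmur names 5 were higher and 19 lower. These are 8.79% and 1.78% of the PIR names, where 7.10% and 2.26% of all 2438 PIR entries were. Of the mmur names they are 6.41% and 24.4%, where 2.42% and 8.83% of all 1732 mmur entries were. Of the 19 lower mmur names, 14 were in the 1 neighbourhood mmur001134721 to mmur001134750. The 24.4% thus rests mostly on that stretch of names, not on separate measurements. The 84 mmur names took 7.87% of piRNA reads in the zygote and 4.99% in the oocyte, most of it on the 5 leading neighbours.

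Members are not all separate measurements. Neighbouring names at most 20 numbers apart with reads within 10% in both zygote and oocyte formed 59 runs with 135 members, and counting each run once left 1663 entries. Runs took in 51.2% of the mmur and 5.56% of the PIR members. Identical reads in all 5 libraries were found for 193 members in 82 groups, and in 64 of these groups the numbers lay over 20 apart, so equal reads were not limited to neighbours. The largest groups had 5 names, among them PIR22683, PIR197475, PIR206759, PIR219422 and PIR230455 with 481 reads each in the zygote and 688 in the oocyte. With each run counted once, the set's share of piRNA reads was 35.5% in the zygote and 18.9% in the oocyte.

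The 84 mmur members lay in 35 neighbourhoods, of which 20 had 1 member. Beside the oocyte-led one around mmur001134725, the largest was mmur001310973 to mmur001310985, with 12 members of 13 entries in the tables. In contrast to the oocyte-led neighbourhood, its members had log2 ratios between 0.06 and 0.85. They ranged from 10.2 to 183.2 RPM in the zygote and from 9.46 to 107 RPM in the oocyte, against at most 1.90 RPM in primordial germ cells and 2.63 to 12.3 RPM in spermatogonia. In spermatozoa all 12 carried the same 0.0769 reads, the fraction that 1 read divided over 13 names gives.

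Values that are not whole would arise where a read is divided between names. Of the members' values, 64.3% in the zygote and 62.4% in the oocyte had a fraction, against 89.7% and 89.8% for the other entries with at least 100 reads. Among PIR names alone the shares were 62.5% in the zygote and 60.6% in the oocyte for members, against 65.3% and 64.4% for other entries, and among mmur names 98.8% for members in each library, against 98.3% and 98.4%. The difference between the set and the rest is thus mostly one of PIR and mmur names. No member's name stands in an endo-siRNA table, nor does that of any other piRNA entry, and 1 of the mmur members has a number next to that of an endo-siRNA entry.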

How the data were processed

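The 5 libraries, 1 per cell type, gave reads of 18 to 32 nucleotides. The submitters' processing notes name the aligner Bowtie (version 0.12.7), the package DESeq and genome build mm10, with no roles. How reads matching several names were divided is not given in the sources used here. The read column holds expected counts as the authors deposited them, many with a fraction. The second value column, TMM per the file headers, proved to be a signal made by multiplying each deposited read number by a constant of the library (0.672 to 1.37), and served as an alternative only.

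Entries were chosen by the rule stated in the report, on reads per 1000000 of the piRNA table (RPM). Members, lists and named entries were chosen with earlier results of these data known. The naming rule took the 10 highest egg means, the 3 highest levels in each male library, the 5 highest and 5 lowest zygote to oocyte ratios, and the 3 entries nearest the 60% limit on each side. Other entries are marked as named after their values were seen. Before taking ratios 0.5 reads were added, and 100 reads over the pair were required. Intervals at 95% are Clopper-Pearson for shares, and for ratios come from the same binomial interval applied to the pair's rounded reads. With 1 library per group no test was made. The choice of entries and the ratios were tested on simulated data. Python 3.11.15 with pandas 2.3.3 and scipy 1.17.1 was used. Among the alternatives were TMM scaling (edgeR 4.0.16) and size factors (DESeq2 1.42.0), both on rounded counts, and the closing section gives their effect.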

Additional observations from a re-analysis of the deposited data

How the results depend on the processing

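No replicate could be left out, and no paired analysis was possible because each group has a single library. The median zygote to oocyte ratio stayed above 0 under the 15 alternatives, but 2 balances turned round. Scaled to all 4 tables, entries at least 4-fold lower in the zygote (70) outnumbered those higher (48), and with DESeq2's size factors spermatozoa (1014) were the highest male library more often than spermatogonia (774). Which entries were chosen depended on scale and limits. With reads scaled to all 4 tables, 14.0% of the entries with the read minimum belonged to the set, with 39.4% of zygote and 22.04% of oocyte piRNA reads and a median log2 ratio of 0.32; primordial germ cells were the highest male library for 180 and spermatozoa for 510. With edgeR's TMM factors these were 18.3%, 49.5% and 28.4%, the median 0.81, and spermatozoa highest for 728. DESeq2's size factors gave 19.6%, 50.1% and 28.8%, a median of 1.08, 228 higher and 72 lower. The deposited column gave 17.4%, 48.8% and 27.3%, 0.87 and 758. Totals without the 5 most abundant entries of any library gave 39.7% and 22.2% of reads and a median of 0.80.

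A minimum of 20 reads left 4315 entries (11.6%) with 40.4% and 22.5% of zygote and oocyte reads, and highest male libraries of 735 (primordial germ cells), 1751 (spermatogonia) and 1402 (spermatozoa). A minimum of 1000 reads left 444 (21.6%) with 37.7% and 21.04% of reads, 13 higher, 6 lower, a median of 0.90, and 54, 369 and 21 in the same order. A limit of 50% gave 17.0% of entries with 47.97% and 26.3% of reads, and 80% gave 10.9%, 29.4% and 15.3%, with a median of 0.96 and primordial germ cells highest for 213. Runs counted once, among members only, gave 35.5% and 18.9% of reads and a median of 0.94. The rule on the oocyte alone gave 13.7% of entries, 38.7% and 22.5% of reads and a median of 0.88, and on the zygote alone 15.99%, 47.9%, 24.9% and 0.97, with 13 entries at least 4-fold lower. The cause of these shifts was not tested. Leaving chrM out of the totals, 5 added reads in place of 0.5, and no minimum over the pair moved no value beyond the same range. Depth limits the male levels, most of which rest on few reads.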
